A study of Mus musculus with 16 samples.

Results

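The Δm/wt two-cell embryos lacked the maternal pool of the histone demethylase KDM1A, also called LSD1, and they are described here on their own. The group held 8 of the 16 libraries of the series, chosen by the genotype and embryo number in their titles, and each library was the poly(A) cDNA of 1 whole mouse embryo. The mothers were superovulated Kdm1a f/f::Zp3-cre females of a mixed background, in which the oocyte promoter Zp3 drives the Cre recombinase that deletes the first exon of Kdm1a. The fathers were wild-type B6D2F1 males, so every embryo carried 1 deleted maternal allele and 1 intact paternal allele. The labels give neither which embryos shared a mother nor the sex of an embryo, and no label names a sequencing batch. Embryos of this genotype stop dividing at the two-cell stage, which limits them as a model of a stage that normal embryos pass through.

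KDM1A removes methyl groups from lysines 4 and 9 of histone H3 and works in a complex with the CoREST scaffold and histone deacetylases. A mouse embryo starts life on mRNA and protein stored in the oocyte, and in the two-cell embryo most of that mRNA is degraded while the embryo's own genome is switched on. A short-lived set of genes and retrotransposons marks this switch, among them the Zscan4 cluster and LTR elements of the MERVL family. The questions here were which transcripts were most abundant in the Δm/wt embryos, which of them differed between embryos, and whether transcripts of other cell types were present.

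The libraries held between 4049168 (embryo 2) and 14334244 (embryo 3) gene counts, and between 11250 (embryo 8) and 14347 (embryo 1) genes had a count. Of 24063 genes in the files, 17877 had a count in at least 1 embryo, and the 60% of these with the most counts, 10727 genes, were kept. Levels are given as CPM, counts scaled to a fixed total, of a library's effective size, that is its total scaled by TMM, the trimmed mean method of edgeR. Rank correlations between pairs of embryos over the kept genes ran between 0.67 and 0.90 over 28 pairs, and embryo 8 had the lowest mean correlation with the others (0.70). Each pair of libraries differed by far more than sampling noise, with a mean chi-square per gene of at least 93.7 where counting alone gives about 1.

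Kdm1a itself, on chromosome 4 at 136550533 to 136602723 (mm10), had few reads in every embryo. Its counts in embryos 1 to 8 were 26, 6, 11, 1, 22, 1, 3 and 0, or between 0 and 3.54 CPM. The count of 0 in embryo 8 allows a level of up to 0.554 CPM, taking 3 counts as the limit, and covers counting error only. These are whole-gene counts, so they do not read the deleted exon and do not separate the maternal from the paternal allele.

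Oocyte transcripts made up most of the top of the list. The 15 genes with the most reads took 13.2% of all counts, and 10 of them stood on 1 of the 10 oocyte gene lists. Over all, 189 of the 10727 kept genes were on these lists. The lists were written with earlier results of these data known, so finding abundant genes on them is a description. Spin1, a chromatin reader of methylated histone H3, had the highest mean, with 14874, 13608, 45458, 11626, 16383, 16870, 27760 and 23655 CPM in embryos 1 to 8. It ranked between 1 and 3 in every embryo. Because the cDNA reaches up to 3 kb from the poly(A) tail, levels of different genes were compared per kb of transcript, with length capped at 3 kb. On that scale Omt2a came first (13486 ± 2652 CPM per kb, SD, n = 8) and Omt2b second (10727 ± 1894 CPM per kb), ahead of Spin1 (7093 ± 3713 CPM per kb). Omt2a and Omt2b are neighbouring oocyte maturation genes on chromosome 9 whose transcripts share 578 of the 1553 windows of 49 bases in Omt2a, the length of a read, so their split is uncertain.

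All 10 genes with the highest level per kb stood on an oocyte list, with the same limit on how the lists were written. After Omt2a, Omt2b and Spin1 they were Zbed3, Bcl2l10, Oosp1, E330034G19Rik, Tcl1, Dppa3 and Cks2. Bcl2l10, a BCL2 relative made in oocytes, had 6645 ± 2567 CPM per kb. Oosp1, a secreted oocyte protein, had 6269 ± 1223 CPM per kb and was among the steadiest of this group. Tcl1, a cofactor of the kinase AKT, had 5356 ± 2006 CPM per kb, and Dppa3, also called STELLA, which guards maternal DNA methylation, had 4210 ± 1597 CPM per kb. The same 10 genes came first with uncapped transcript length. A set of 15 genes was among the 50 with the most reads in each of the 8 embryos, and 10 of these 15 were on an oocyte list.

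The top ranks were not held equally in all embryos. Zbed3, which codes for a protein of the subcortical maternal complex of the egg, had 62824 CPM in embryo 3 and between 2597 and 12474 CPM in the other embryos. Embryo 3 was thus 5.0-fold above the next embryo in this gene. Dcdc2c, a doublecortin-domain gene on no list, had 39876 CPM in embryo 1, where it was the most abundant transcript of all, and 121 CPM in embryo 6. Its rank by reads ran between 1 and 1505. The maternal securin Pttg1 had 1319 CPM in embryo 5 and between 4525 and 10885 CPM in the other embryos, so embryo 5 lay apart at the low side.

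**Figure D1:**
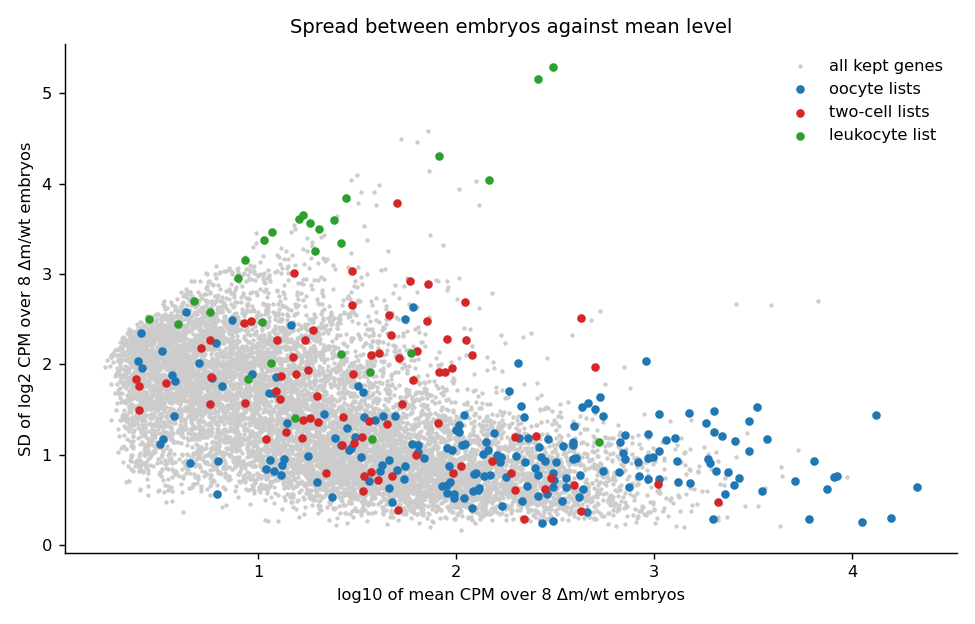
Standard deviation of log2 CPM over the 8 Δm/wt embryos (vertical) against the log10 of mean CPM (horizontal), 1 point per kept gene, with members of the oocyte, two-cell and leukocyte lists in colour. The highest points of the leukocyte list are Lyz1 and Lyz2, with SDs of 5.29 and 5.15, and of the abundant oocyte genes at the right Omt2b lies at 0.26 and Zbed3 at 1.44.

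Differences between the libraries of single embryos were general. A chi-square test of each gene's 8 counts against the library sizes, adjusted by Benjamini-Hochberg, called 10727 of 10727 kept genes (100%). Every kept gene thus differed between libraries by more than counting error, and the test separates no gene from another. The difference includes noise of cDNA amplification, which 1 library per embryo does not separate from differences between the embryos themselves. The median kept gene had an SD of 1.31 on the log2 scale and 29.1% of its summed CPM in its highest embryo. For the 3136 genes that averaged 50 CPM or more, the median SD was 0.82. Because rare transcripts vary more in a single-embryo library, each gene's SD was set against the trend of SD on mean level, and the 10% of genes with the largest excess are called high-spread and the 10% with the smallest low-spread (1073 genes each). By this construction 10% of the kept genes are in each class, which is the background for every list below.

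The gene lists differed widely in their share of high-spread members. The leukocyte list had 19 high-spread members of 29 kept and the two-cell lists together 27 of 81, against 22 of 189 for the oocyte lists and the 10% over all kept genes. The lists were written with earlier results of these data known, so these shares are a description and not a test. In addition, a gene with 0 counts in some embryos was kept only through its counts in the others. The median excess SD was 1.12 for the leukocyte list, 0.22 for the two-cell lists and 0.09 for the oocyte lists, beside -0.01 over all kept genes. Left out 1 at a time, the embryos moved the leukocyte share between 51.9% and 75.0% and the two-cell share between 26.6% and 40.7%.

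The 15 most variable genes of at least 50 CPM were Lyz1, Lyz2, Lcn2, Prap1, Ltf, Ovgp1, A430089I19Rik, Ctss, Ccl6, Saa3, Wfdc17, Olfr376, Apoe, Dcdc2c and Gnpda2. Most of these are described below with the cell types they mark. A430089I19Rik, an uncharacterised gene, had 569 CPM in embryo 4, 298 CPM in embryo 8, and 0.577 and 0.251 CPM in embryos 5 and 6. Olfr376, on the two-cell lists, had 273 CPM in embryo 8, 89.1 CPM in embryo 1 and 0 counts in embryo 2. Gnpda2, which codes for glucosamine-6-phosphate deaminase 2, had 364 CPM in embryo 3 and 0.185 CPM in embryo 8.

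The 10 steadiest genes of at least 50 CPM were chosen for their small excess SD. Epc1, a subunit of the NuA4 histone acetyltransferase, had 78.1, 53.8, 85.9, 76.4, 75.0, 73.9, 77.8 and 71.3 CPM in embryos 1 to 8. Rbbp8, which codes for the DNA end resection factor CtIP, ran between 81.5 and 116 CPM. Cycs, cytochrome c, ran between 56.6 and 93.8 CPM, and Tfdp2, a partner of the E2F factors, between 39.0 and 64.6 CPM. The others were Mrpl40, Scyl2, Taok3, Abhd5, Gnpat and Atf7ip, and the last codes for the partner of the H3K9 methyltransferase SETDB1. The study's qPCR was scaled to 3 genes together. They ran between 59.0 and 873 CPM for Hprt, between 148 and 810 CPM for Gapdh and between 82.4 and 271 CPM for Ppia. Their excess SDs were 0.40, 0.17 and -0.23, beside a median of 0.003 for kept genes of at least 50 CPM, and none was high-spread.

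The oocyte lists differed in how much their mean level varied between embryos. The mean log2 CPM of all 189 kept oocyte genes ran between 6.54 in embryo 5 and 7.43 in embryo 3. Of the 10 lists, 5 had a range of less than 1 log2 unit over the embryos. The others were the reproductive NLRP family (1.38), other oocyte transcripts (1.66), Oog and PRAME-like genes (1.96), the subcortical maternal complex (2.22) and the Fbxw cluster (3.09). The list of factors of maternal mRNA decay was the tightest, between 6.44 and 6.92. Within it Btg4, the adaptor that brings the CCR4-NOT deadenylase to maternal mRNA, ran between 685 and 3844 CPM. Cnot7, a catalytic subunit of that deadenylase, ran between 718 and 4109 CPM. None of the 21 kept decay genes was high-spread and 3 were low-spread, Cnot8, Rqcd1 and Cnot10.

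Zona and oocyte-secreted factors also had no high-spread member of 14. Oosp1 ran between 4466 and 7957 CPM. Gdf9, the growth factor by which the oocyte signals to cumulus cells, ran between 763 and 6703 CPM, and its partner Bmp15 between 512 and 4729 CPM. Embryo 3 was lowest in Gdf9 and highest in Bmp15.

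In the subcortical maternal complex 3 of 8 kept genes were high-spread, Zbed3, Nlrp5 and Khdc3. Nlrp5, also called MATER, had 331, 1172, 318, 1587, 181, 454, 188 and 42.5 CPM in embryos 1 to 8, so embryos 2 and 4 were high and embryo 8 low. Aurkc, the meiotic Aurora kinase, had 4.54 CPM in embryo 4 and between 118 and 310 CPM in the other 7 embryos. Rfpl4, an oocyte RING-finger gene, had 83.8 CPM in embryo 5 and 47.6 CPM in embryo 7 against 2983 CPM in embryo 3.

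The Fbxw cluster, a group of oocyte F-box genes on chromosome 9, separated the embryos most among the oocyte lists. Its mean log2 CPM was 10.21 in embryo 4, 9.54 in embryo 2 and 7.12 in embryo 1, and its summed level ran between 2567 and 32784 CPM. Fbxw24 had 909, 6693, 3024, 10443, 1613, 3406, 1430 and 2250 CPM in embryos 1 to 8, and Fbxw28 had 6894 CPM in embryo 4 and 308 CPM in embryo 1. Of 12 members, 4 were high-spread, while the share was 0% without embryo 4, 58.3% without embryo 3 and 50% with no filter on low counts. Fbxw14 and Fbxw28 share 1238 of the 2156 read-length windows of Fbxw14, so they count as 1 signal.

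**Figure D2:**
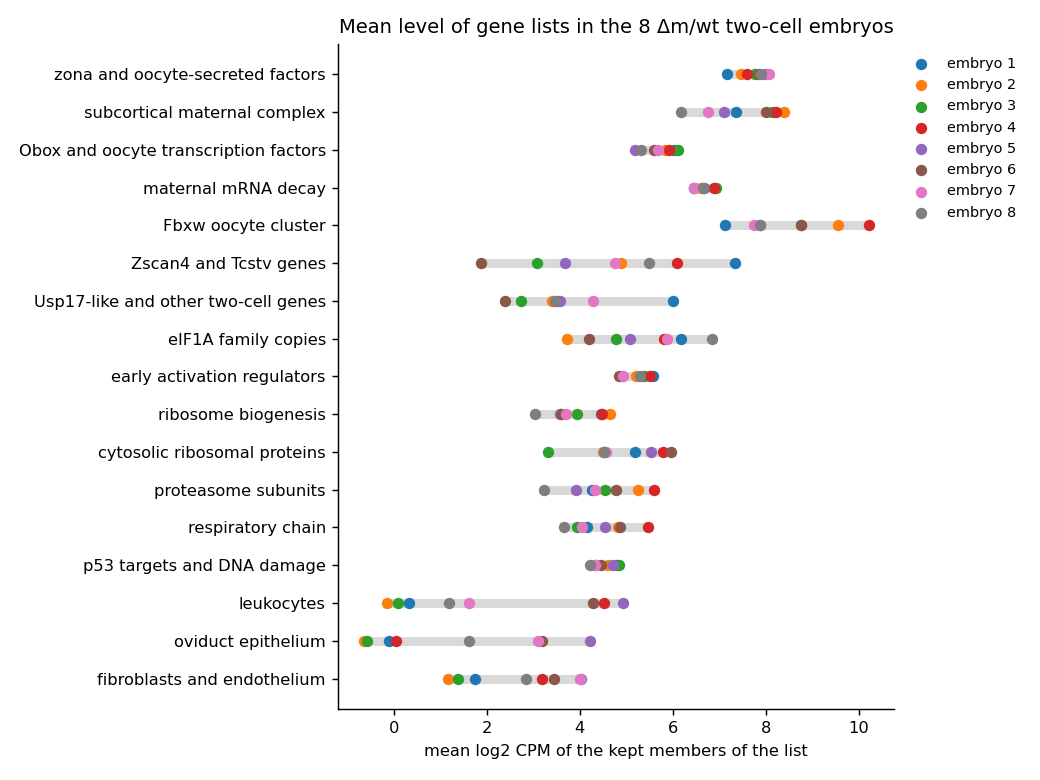
Mean log2 CPM of the kept members of 17 gene lists (rows), 1 point per Δm/wt embryo, with a grey bar over the range. The maternal mRNA decay list lies between 6.44 and 6.92, whereas the Zscan4 and Tcstv genes lie between 1.89 in embryo 6 and 7.34 in embryo 1 and the leukocyte list between -0.14 and 4.92.

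Genes of two-cell activation differed between the embryos more than the oocyte genes did. The mean log2 CPM of the 81 kept two-cell genes was 6.09, 4.15, 3.91, 4.81, 4.25, 3.35, 4.79 and 4.84 in embryos 1 to 8. Embryo 1 lay highest and embryo 6 lowest, and the other 6 embryos lay within 1 log2 unit of each other. The range of 2.75 log2 units was 1.51 without embryo 1 and 1.59 over embryos 4 to 8 alone. Every embryo had reads on these genes, and each two-cell list except the early regulators held at least 1 high-spread member in 3.

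The Zscan4 and Tcstv genes held 7 high-spread members of 11 kept. Zscan4 proteins are SCAN and zinc-finger factors that are transcribed in a burst in late two-cell embryos. Zscan4c, on chromosome 7 at 11005745 to 11010547, had 119, 48.8, 6.60, 225, 14.8, 0.251, 20.2 and 142 CPM in embryos 1 to 8. Zscan4f had 121, 43.3, 4.87, 131, 13.6, 0.125, 20.8 and 133 CPM, and Zscan4d had 92.5, 38.4, 4.87, 89.7, 13.5, 0.376, 24.8 and 103 CPM. Embryos 1, 4 and 8 were high in all 3 copies and embryo 6 had almost none. These copies cannot be read as independent, since Zscan4c shares 1459 of its 2228 read-length windows with Zscan4f and 827 with Zscan4d.

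The 3 copies also resemble each other at the start of the gene, and their promoters are printed for that reason, as RefSeq gives them for GRCm38.p6, 5′ to 3′ on the strand of the gene. Capitals mark a TATAAA motif and a CCAAT motif that follows it after 6 bases. The stretches are chr7:11005495-11005794 (plus strand) for Zscan4c, chr7:11166099-11166398 (minus strand) for Zscan4d and chr7:11397665-11397964 (plus strand) for Zscan4f.
Zscan4c: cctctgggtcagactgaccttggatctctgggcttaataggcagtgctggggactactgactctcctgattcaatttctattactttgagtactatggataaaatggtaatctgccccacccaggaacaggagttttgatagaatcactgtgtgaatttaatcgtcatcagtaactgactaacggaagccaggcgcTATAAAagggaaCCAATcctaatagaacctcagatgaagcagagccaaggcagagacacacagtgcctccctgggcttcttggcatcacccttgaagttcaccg
Zscan4d: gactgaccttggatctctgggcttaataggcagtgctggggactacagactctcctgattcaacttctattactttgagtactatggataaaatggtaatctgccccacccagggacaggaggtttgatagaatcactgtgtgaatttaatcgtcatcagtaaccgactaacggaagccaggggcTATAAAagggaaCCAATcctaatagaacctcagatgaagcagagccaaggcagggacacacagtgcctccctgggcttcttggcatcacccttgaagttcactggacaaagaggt
Zscan4f: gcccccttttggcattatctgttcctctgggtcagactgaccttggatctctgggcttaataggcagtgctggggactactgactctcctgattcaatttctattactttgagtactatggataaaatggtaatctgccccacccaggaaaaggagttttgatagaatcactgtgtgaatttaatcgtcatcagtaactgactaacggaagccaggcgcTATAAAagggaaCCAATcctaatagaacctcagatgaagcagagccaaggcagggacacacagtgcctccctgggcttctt
The TATAAA motif begins 54 bases before the annotated start site in Zscan4c, 65 in Zscan4d and 31 in Zscan4f. Searched on both strands, TATAAA is in 13.6% of 32851 RefSeq promoters of this length and CCAAT in 37.4%. Both motifs on 1 strand with 6 bases between them occur in 12 promoters (0.0365%), a spacing that was chosen after the sequences were seen. A match is a description of the letters and not of a factor's binding.

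Gm20767, a gene on the Tcstv list, was the most abundant of its group, with 2367, 143, 58.7, 202, 100, 38.5, 250 and 845 CPM in embryos 1 to 8. B020004J07Rik, a two-cell gene on chromosome 4, had 2185, 35.8, 27.1, 122, 37.5, 16.2, 181 and 830 CPM. Embryo 1 was 2.8- and 2.6-fold above embryo 8, the next, and more than 8-fold above each of the others. Dcdc2c on chromosome 12 and 2 genes chosen after their values were seen, Gm7102 on chromosome 19 and 1700030L20Rik on chromosome 3, put the embryos in the same order as B020004J07Rik, from embryo 1 through 8, 7, 4, 5, 2 and 3 to embryo 6. Gm7102 had 22483 CPM in embryo 1 and 80.3 CPM in embryo 6. The 5 genes lie on 5 chromosomes but share short stretches: Gm7102 shares 107 of its 1576 read-length windows with Dcdc2c and 25 with B020004J07Rik.

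Other two-cell genes had another order of embryos. Zfp352, a zinc-finger gene derived from a retrotransposed copy, had 387, 22.4, 59.9, 5.41, 188, 17.9, 246 and 39.2 CPM in embryos 1 to 8. Embryo 4, among the highest in Zscan4c, was the lowest in Zfp352. The eIF1A family copies were highest in embryo 8, with a list mean of 6.83 log2 CPM there and 3.72 in embryo 2. BB287469 had 258, 4.61, 22.9, 69.9, 20.9, 9.40, 135 and 374 CPM in embryos 1 to 8, and Gm8300 had 143, 2.86, 18.4, 87.5, 32.6, 7.27, 109 and 318 CPM. Both are copies of a translation initiation factor gene on chromosome 12 and share 132 read-length windows. Eif1, also on this list but a gene of another initiation factor, eIF1, was steady, between 1456 and 3484 CPM.

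B020031M17Rik had 677 CPM in embryo 1, 139 CPM in embryo 4 and between 2.86 and 42.4 CPM in the other 6. Sp110, a chromatin-binding speckled protein gene, had 676 CPM in embryo 1 and between 54.1 and 245 CPM elsewhere. Tdpoz1, of the BTB-domain genes of the two-cell stage, did not reach 6 CPM in any embryo. The regulators of early activation varied less, with 2 high-spread members of 23 and list means between 4.84 and 5.56. Klf17, a Krüppel-like factor, ran between 573 and 1967 CPM, and Yap1, the effector of the Hippo pathway, between 179 and 797 CPM. The 2 high-spread members were Smarca4, the BRG1 remodeller, with 0.739 CPM in embryo 8 and 85.3 CPM in embryo 6, and the heat shock gene Hspa1b, with 165 CPM in embryo 8 and 0.693 CPM in embryo 5.

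**Figure D3:**
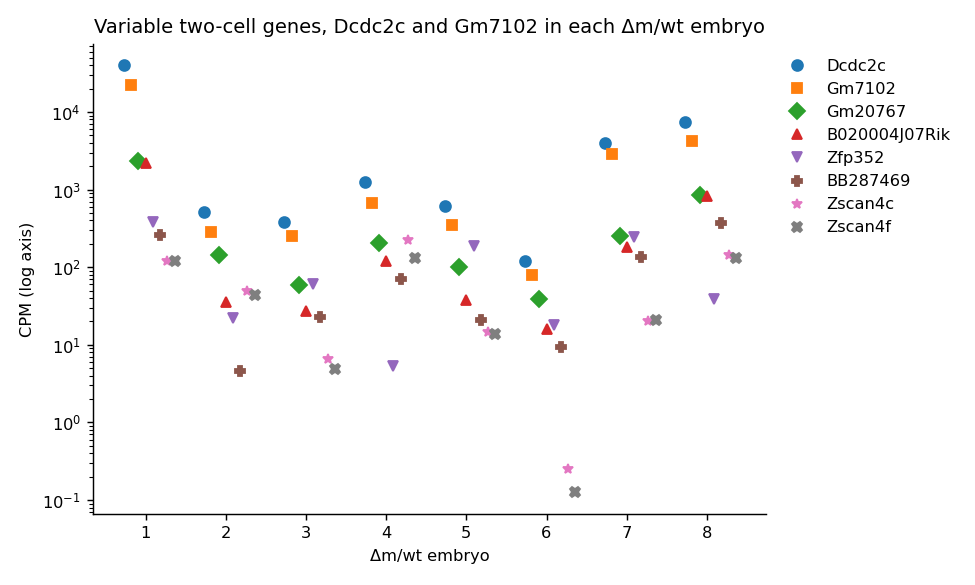
Level of 8 genes in CPM (log axis) in each Δm/wt embryo (horizontal), 1 symbol per gene. Dcdc2c, Gm7102, Gm20767 and B020004J07Rik are highest in embryo 1 and lowest in embryo 6, and Zscan4c and Zscan4f fall below 0.3 CPM in embryo 6.

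Genes of ribosomes, the proteasome and the respiratory chain varied by embryo, and these counts do not separate stored from newly made mRNA. Of 73 kept cytosolic ribosomal protein genes, 14 were high-spread, but the count depended on single embryos: the high-spread share was 6.85% without embryo 3 and 32.9% without embryo 8. The list mean was 3.31 log2 CPM in embryo 3 and 5.95 in embryo 6. Rpl13 had 78.8, 6.15, 4.17, 105, 192, 225, 35.4 and 254 CPM in embryos 1 to 8, and Rpl21 had 3.39 CPM in embryo 3 and 189 CPM in embryo 4. Rps2 was steadier at between 384 and 2351 CPM. By the measure of edgeR's dispersion over its trend, 8.22% of the list was high-spread, so the call rests on the measure.

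Ribosome biogenesis had 3 high-spread members of 51 and 5 low-spread. Its high-spread share of 5.88% was 1.96% by edgeR's dispersion and up to 10% with 1 embryo left out (embryo 1). Its mean was lowest in embryo 8 at 3.04 log2 CPM and highest in embryo 2 at 4.66. Wdr36, a factor of the small subunit processome, had 0.554 CPM in embryo 8 and between 25.1 and 111 CPM in the others. Proteasome subunits had 6 high-spread members of 30, and their mean was also lowest in embryo 8 (3.24). Psmc1, an ATPase of the proteasome cap, had 0 counts in embryo 8, 0.115 CPM in embryo 5 and 32.5 CPM in embryo 2. By edgeR's dispersion over its trend the proteasome share was 10%, as over all genes. The respiratory chain had 8 of 45 (6.67% by that dispersion), with Ndufa4 at 2.03 CPM in embryo 8 and between 31.2 and 250 CPM in the others. Genes of the p53 response had 0 high-spread members of 24 and 4 low-spread, and at most 8.33% were high-spread with 1 embryo left out (embryo 8). Mdm2, the ubiquitin ligase of p53, ran between 384 and 695 CPM, and Cdkn1a, the cell cycle inhibitor p21, between 2.55 and 24.2 CPM.

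On the list of KDM1A and CoREST complex genes, 2 of 14 kept genes were high-spread and 2 low-spread. Kdm1b, the related demethylase that is abundant in oocytes, had 16.6, 33.2, 165, 220, 120, 125, 3.97 and 672 CPM in embryos 1 to 8. Embryo 8 was highest and embryo 7 lowest. The deacetylase gene Hdac2 had 0.924 CPM in embryo 8 and 162 CPM in embryo 3, and Hdac1 had 106 CPM in embryo 1 and no more than 15.6 CPM elsewhere. Of 28 genes that restrict retrotransposons, 4 were high-spread. Tex19.1 had between 75.2 and 81.8 CPM in embryos 1 to 4 and between 0.369 and 18.3 CPM in embryos 5 to 8, whereas Dicer1 stayed between 190 and 370 CPM in all.

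Reads on repeats were counted separately, by class of element. They came to between 4.54 per 100 gene counts in embryo 2 and 20.3 in embryo 1. LTR elements were the largest class in every embryo, with 80.7%, 58.4%, 60.6%, 51.9%, 64.9%, 61.2%, 64.2% and 59.0% of repeat reads in embryos 1 to 8. The mean was 62.6 ± 8.32% (SD, n = 8), and the exact 95% intervals of the LTR, LINE and SINE shares reached at most 0.226 percentage points to each side, counting error only. Embryo 1 stood apart from the others at the high side. Its 1051185 LTR reads equalled 16.4 per 100 gene counts, against between 2.65 and 7.32 in the other embryos.

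LINE elements took 8.11%, 12.8%, 13.7%, 15.4%, 13.0%, 12.4%, 13.4% and 14.5% of repeat reads in embryos 1 to 8, a mean of 12.9 ± 2.16%. As a share of repeat reads embryo 1 was lowest, but shares of 1 total are tied to each other. Against gene counts embryo 1 had 1.65 LINE reads per 100, above every embryo but embryo 8 (1.75), and embryo 2 was lowest with 0.581. SINE elements took between 8.69% in embryo 1 and 22.8% in embryo 4. Per SINE read, embryo 1 had 9.28 LTR reads and the other embryos between 2.27 and 4.70, whereas LINE reads per SINE read ran between 0.624 and 0.948 over all 8.

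The rarer classes varied more. Satellite repeats, the main sequence of centromeric heterochromatin, took 0.176% of repeat reads in embryo 1 and 4.5% in embryo 8, and simple repeats took 0.256% in embryo 1 and 2.59% in embryo 8. Embryo 8 was highest in both classes also per 100 gene counts, at 0.546 for satellites and 0.314 for simple repeats. The files give classes and not families, so the LTR reads were not divided further.

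**Figure D4:**
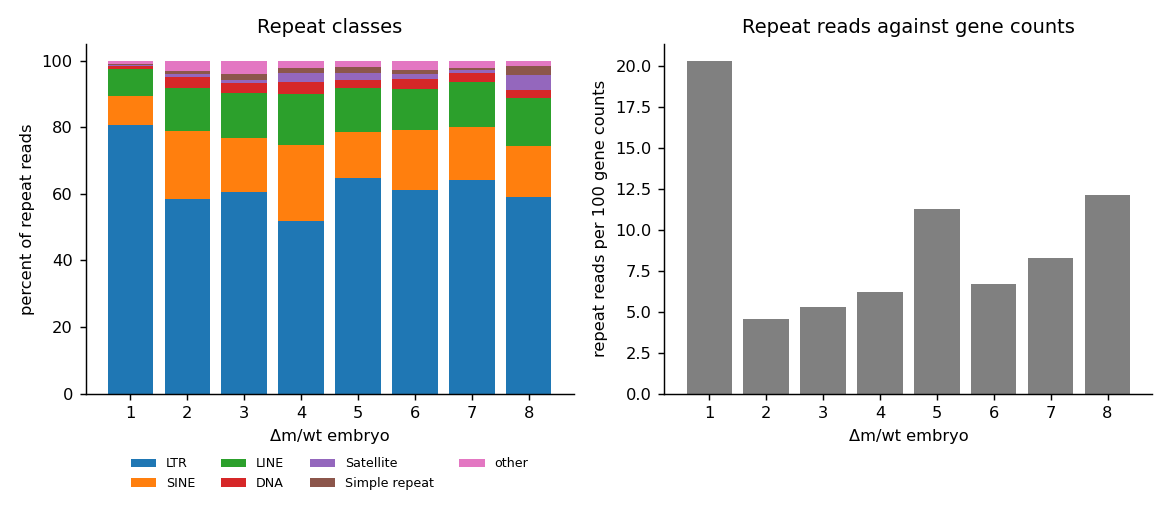
Left, the share of repeat classes in percent of all repeat reads in each Δm/wt embryo, as stacked bars. Right, repeat reads per 100 gene counts in the same embryos, where embryo 1 has 20.3 and embryo 2 has 4.54.

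None of 8 relations between these measures passed an exact two-sided permutation test over pairings of the 8 embryos, with 0 of 8 at an unadjusted p under 0.05. The two-cell mean against the LTR share had Pearson's r = 0.59 (p = 0.132, adjusted p = 0.574) and Spearman's rho = 0.14 (p = 0.752). Without embryos 1 and 4, the 2 farthest from the median LTR share, the permutation gave r = 0.12 (p = 0.797). Without embryo 1 alone r was -0.30, so the positive value rested on embryo 1. Against the LINE share, r was -0.49 (exact permutation p = 0.215) and turned to 0.72 without embryos 1 and 4 (permutation p = 0.0958). The two-cell mean and the oocyte mean had r = -0.24 (exact permutation p = 0.574, adjusted p = 0.680). Against total gene counts, r was -0.22 for the two-cell mean and 0.35 for the oocyte mean (exact permutation p = 0.595 and 0.401), and the second turned to -0.34 without embryo 3. No label gives a batch within which to repeat these, and the 5 embryos 4 to 8 are too few for a correlation.

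Transcripts of leukocytes had their highest summed levels in embryos 4 to 6, and many members had 0 counts in embryos 1 to 3. The summed level of the list was 317, 337, 557, 3722, 5413, 2288, 870 and 589 CPM in embryos 1 to 8. Srgn, the proteoglycan serglycin, which had reads in all embryos, made up 100, 241 and 324 CPM of this in embryos 1, 2 and 3. Without Srgn, embryos 7 and 8 had 298 CPM each, and embryos 1, 2 and 3 had 217, 95.1 and 233 CPM. Lyz1 and Lyz2, neighbouring lysozyme genes on chromosome 10 that share 203 read-length windows, had 0 counts in embryos 1, 2 and 3. Lyz1 had 466, 1701, 254, 38.7 and 23.5 CPM in embryos 4 to 8, and Lyz2 had 245, 1563, 207, 53.8 and 4.8 CPM. The count of 0 allows up to 0.409, 0.659 and 0.261 CPM in embryos 1, 2 and 3.

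The leukocyte transcripts differed between the embryos that had them. Csf1r, the macrophage growth factor receptor, had 14.8 CPM in embryo 4, 98.2 CPM in embryo 5 and 15.9 CPM in embryo 6, and at most 0.0946 CPM in the other 5. Emr1, the macrophage marker F4/80, had 123 CPM in embryo 5. Ccl6, a chemokine of myeloid cells, had 1042 CPM in embryo 4, and Ctss, a lysosomal protease of antigen-presenting cells, had 488 CPM there. S100a8 and S100a9, the paired calcium-binding proteins of neutrophils, were highest in embryo 6 at 163 and 124 CPM. Ptprc, the pan-leukocyte marker CD45, had 3.68, 25.0, 4.38 and 4.63 CPM in embryos 4 to 7 and 0 counts in embryos 1, 2, 3 and 8. Of the 37 members in the files, 19 had 0 counts in embryos 1 to 3 together, and 1 had 0 in all embryos.

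The oviduct list had its highest summed levels in embryos 5 to 8, at 1016, 477, 463 and 282 CPM. In embryos 1 to 4 it summed to 51.4, 82.4, 94.0 and 118 CPM. Not every member followed this. Cdh1 ran between 34.2 and 146 CPM over all 8 embryos. Embryo 8 had 0 counts of Krt18 and 0.554 CPM of Clu. Ovgp1, the oviductal glycoprotein that coats the egg on its way to the uterus, had 3.54, 1.10, 0, 1.95, 630, 121, 216 and 38.6 CPM in embryos 1 to 8. Wfdc2, a secreted protease inhibitor of duct epithelia, had 0 counts in embryos 1 to 3, 4.00 CPM in embryo 4 and between 28.8 and 139 CPM in embryos 5 to 8. Outside the list, the secreted antimicrobial proteins lactotransferrin (Ltf) and lipocalin 2 (Lcn2) and the epithelial gene Prap1 had 29.4 CPM or more in embryos 5 to 8 and 3.68 CPM or less in embryos 1 to 4. Ltf had 0 counts in embryos 1 to 3, 0.325 CPM in embryo 4 and 70.2, 162, 128 and 60.4 CPM in embryos 5 to 8. Prap1 had 3.68 CPM in embryo 4 and 79.5, 124, 183 and 118 CPM in embryos 5 to 8. Of 12 kept members of the oviduct list, 5 were high-spread.

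**Figure D5:**
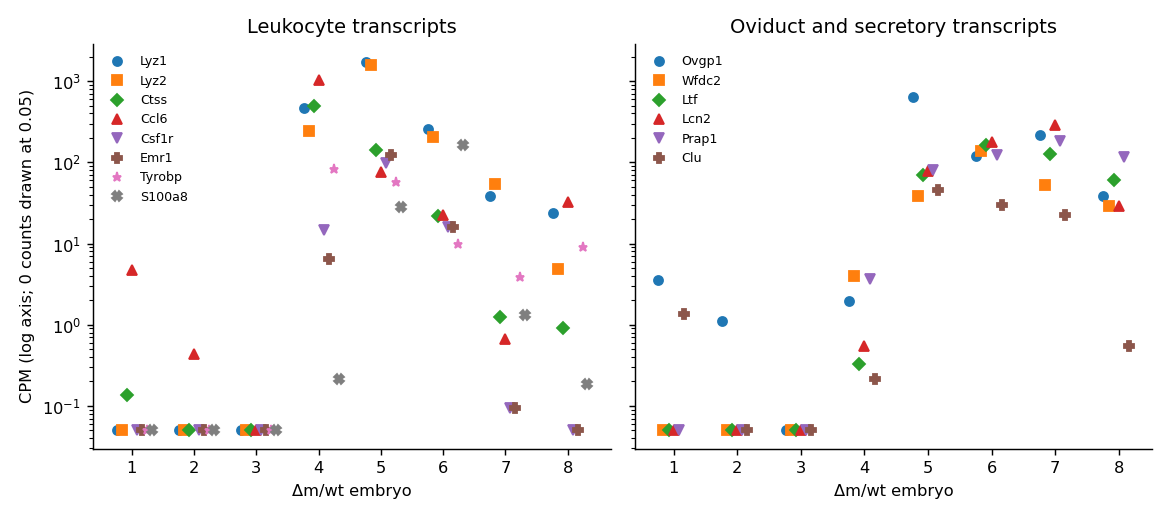
Level in CPM (log axis, 0 counts drawn at 0.05) of 8 leukocyte transcripts (left) and 6 oviduct or secretory transcripts (right) in each Δm/wt embryo, 1 symbol per gene. Nearly all points of embryos 1 to 3 lie at or near the bottom, Lyz1 reaches 1701 CPM in embryo 5 and Ovgp1 630 CPM.

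Over all kept genes, 79 (0.736%) had 0 counts in embryos 1 to 3 and at least 10 counts in 3 or more of embryos 4 to 8, a rule set after the values were seen. Of these, 11 were among the 29 kept members of the leukocyte list and 3 among the 12 of the oviduct list. Of the 79, 45 were high-spread, but the rule picks genes with a wide spread, so this count follows in part from the choice. The lists were also written with earlier results of these data known. Where these reads came from was not tested, nor was their part in the other differences between embryos. Embryos 1 to 3 also differed from embryos 4 to 8 in the study's read numbers, by more dropped or more raw reads, as described with the processing. Whether the 0 counts of these genes in embryos 1 to 3 followed from that difference between libraries was not tested.

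The list of fibroblasts and endothelium summed to 144, 82.6 and 140 CPM in embryos 1 to 3 and to 346, 1679, 374, 380 and 484 CPM in embryos 4 to 8. Of its 11 kept members, 3 were high-spread (Fn1, Vim and Mmp2). Fibronectin (Fn1) had 1448 CPM in embryo 5, 147 CPM in embryo 6 and between 11.6 and 51.7 CPM elsewhere. Trf, the serum iron carrier transferrin, had 188 CPM in embryo 5 and 62.4 CPM in embryo 6, and at most 1.84 CPM elsewhere. Of 18 erythrocyte genes, 12 had 0 counts in all embryos, the adult globin genes in the files among them. The 2 kept members were Epb4.2 and Car2, a carbonic anhydrase gene with 0 counts in embryos 1, 2, 3 and 8 and between 2.49 and 18.9 CPM in embryos 4 to 7. Neuron and glia genes had 0 high-spread members of 11 and summed to between 399 and 902 CPM, with the astrocyte marker Gfap at 0 in every embryo. Of 28 sperm and spermatid genes, 13 had 0 counts in all embryos, including the protamine Prm1 and the transition protein Tnp1. The protamine gene Prm2 had 47 counts in embryo 8 (8.68 CPM) and 3 in embryo 2. Odf2 (between 302 and 1034 CPM) made up most of the list's level. Of 29 cumulus and granulosa genes, 10 had 0 counts in all embryos, Amh and Inha among them. Cyp19a1, the aromatase, ran between 23.8 and 127 CPM. Y-linked genes had few reads: the most were 115 counts of Usp9y in embryo 5, 62 of Eif2s3y in embryo 7, 55 of Uba1y in embryo 5 and 54 of Ddx3y in embryo 4. Ddx3x, the X-linked relative of Ddx3y, ran between 575 and 3122 CPM.

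Single embryos also stood apart in individual genes. By Dixon's ratio on log2 CPM, the gap of an extreme embryo to its neighbour over the whole range, 1260 of 10727 kept genes (11.7%) had 1 embryo beyond the critical value, 257 at the high and 1003 at the low side. Embryo 8 accounted for 599 of the low ones (5.58% of kept genes) and 126 of the high ones (1.17%). The next were embryo 4 with 113 low, embryo 5 with 89 low and embryo 7 with 83 low, whereas embryo 2 had 4 high and 5 low. Embryo 8 also had the fewest genes detected, 10574 after thinning each library to 4049168 counts, against between 12334 and 13963 in the others. Whether the low genes of embryo 8 followed from this lower number of detected genes was not tested.

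The genes highest over the next embryo were chosen for that gap, so their values are a description. In embryo 1 they were Adcy2, an adenylate cyclase (83.1 CPM), Rbmx, an RNA-binding protein (124 CPM), and Abt1 (393 CPM), each at no more than 33.1 CPM in any other embryo. In embryo 2 they were Nup85, of the nuclear pore, with 661 CPM against no more than 213 CPM elsewhere, Fbxo34 and Mllt4. Embryo 3 had Gm10436, the phosphatase gene Dusp7 and the GTPase gene Rab21, the first at 1352 CPM against no more than 331 CPM elsewhere. Embryo 4 had the Wnt receptor gene Fzd1, Stk31 and Rab1, and Rab1 had 199.9 CPM there and at most 29 CPM elsewhere. Embryo 5 had Ccdc17 (112 CPM, at most 0.434 CPM elsewhere), Htatsf1 and Pdzd11. Embryo 6 had Slc3a2, the heavy chain of amino acid transporters, at 872 CPM against at most 389 CPM, and embryo 7 had Zbtb37, Arhgap28 and Rap1gds1, all less than 2-fold above the next embryo. In embryo 8 Gpat2, Pdzd9 and 4930556J02Rik had 76.7, 112 and 90.2 CPM and no more than 0.439 CPM in any other embryo.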

How the data were processed

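Gene and repeat read counts of the 8 Δm/wt libraries were used as deposited by the authors, who sequenced poly(A) cDNA of single embryos as single-end reads of 49 bases. Per the submitters' processing notes and the study's methods, reads were aligned to mm10 with TopHat2 2.0.6, unique best alignments were counted on RefSeq genes with HTSeq 0.6.1, and repeat reads were aligned with Bowtie 1.0.0 without mismatches after ribosomal reads were removed. Multi-copy genes therefore lose reads that fit several copies, and the counts of repeat classes depend on reads with concordant annotation. The f/wt libraries were not used here. Of each gene file, 1 emptied line was left out.

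From these counts, the 60% of counted genes with the most reads were kept, library sizes were scaled by TMM (edgeR 4.0.16, R 4.3.3), and log2 CPM was computed with a prior count of 2. Excess spread is the SD of log2 CPM minus a lowess trend (span 0.3, statsmodels 0.14.6). Dixon's critical value for 8 embryos was 0.526. Alternatives were DESeq2 1.42.0 size factors, library totals, no filter or a mean of at least 10 CPM, a prior count of 0.5, edgeR dispersion as the measure, gene counts as the repeat denominator, and leaving out each embryo. Permutation tests ran over all 40320 pairings (scipy 1.17.1, Python 3.11.15). Lengths are those of the longest GENCODE transcript of each symbol, found for 10650 of the 10727 kept genes. The spread and Dixon scripts were tested on simulated data. The embryos are separate samples by their labels, but shared mothers are not given. The permutation p-values treat the embryos as independent, which embryos of 1 mother may not be. The chi-square test is against counting error only.

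The 34 gene lists held 909 genes, of which 876 were in the files. Members and lists were chosen with earlier results of these data known. Named genes were Kdm1a, the 15 genes with most reads and the 10 with most per kb, the 15 most and 10 least variable genes of at least 50 CPM, up to 3 genes highest in each embryo, and in each list up to 4 most abundant and 3 most variable members, plus cell type members of at least 10 CPM. Genes of defining roles listed at 0, the qPCR reference genes and those said to be chosen later were added. Embryos 4 to 8 were also described alone, because in the study's table of read numbers embryos 1 and 2 had more reads dropped for undetermined bases and embryo 3 more raw reads. The result of 1 gene is not reported here.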

Additional observations from a re-analysis of the deposited data

Results flagged for a closer look

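Values are listed here where 1 embryo lay apart from the other 7 by Dixon's ratio. Chance flags about 1 in 20 groups, and 11.7% of all kept genes were beyond the critical value. The genes high in 1 embryo below were chosen for that gap, so their place here follows from the choice.

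In embryo 1, LTR elements were high (80.7% of repeat reads) while LINE elements (8.11%) and DNA transposons (1.07%) were low as shares of the same total. The mean of Tdpoz, Zfp352 and Ubtfl1 was high there (6.14 log2 CPM), as were Adcy2 (83.1 CPM), Rbmx (124 CPM), Abt1 (393 CPM) and Pou5f1, the pluripotency factor OCT4 (222 CPM). Oosp2, an oocyte-secreted protein (39.7 CPM), Nlrp14 (259 CPM) and the cadherin gene Cdh1 (34.2 CPM) were low in embryo 1.

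In embryo 2, Nup85 (661 CPM), Fbxo34 (443 CPM) and Mllt4 (537 CPM) were high and Epc1 (53.8 CPM) was low. In embryo 3, Gm10436 (1352 CPM), Dusp7 (230 CPM) and Rab21 (253 CPM) were high. In embryo 4, Fzd1 (60.4 CPM), Stk31 (134 CPM) and Rab1 (199.9 CPM) were high, as was the mean of heat shock and chaperone genes (6.71 log2 CPM), and Aurkc (4.54 CPM) and the p53 target Aen (0.108 CPM) were low.

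In embryo 5, Bcl2l10 (2316 CPM), Pttg1 (1319 CPM) and the cyclin gene Ccnb1 (196 CPM) were low, and Ccdc17 (112 CPM), Htatsf1 (57.8 CPM) and Pdzd11 (92.6 CPM) were high. In embryo 6, Slc3a2 (872 CPM) was high. In embryo 7, Zbtb37 (63.6 CPM), Arhgap28 (376 CPM), Rap1gds1 (223 CPM) and the repeat class called RNA (0.0191% of repeat reads) were high.

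In embryo 8, fewer genes were detected (11250), and Gnpda2 (0.185 CPM), the checkpoint kinase gene Bub1b (1.11 CPM), Wdr36 (0.554 CPM), Ndufa4 (2.03 CPM) and the chaperone gene Hspa4 (0 CPM) were low. Gpat2 (76.7 CPM), Pdzd9 (112 CPM) and 4930556J02Rik (90.2 CPM) were high.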

How the results depend on the processing

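No paired analysis was possible because only the Δm/wt group was described. Of the main values under the alternatives, 281 stayed close, 14 moved and 8 changed sign, and of the values of single genes and smaller lists 399 stayed close and 51 moved. Causes were not tested unless stated. With no filter, which adds rare genes, 23.6% of genes had 1 embryo apart and 3.42% had embryo 8 low. With edgeR's dispersion over its trend as the measure, the high-spread share was 83.3% for the oviduct list and 8.22% for cytosolic ribosomal proteins, and it was also lower for the respiratory chain (6.67%), proteasome (10%) and ribosome biogenesis (1.96%). Over embryos 4 to 8 only, the two-cell range was 1.59 log2 units, the ribosomal share 8.22% and the fold range of the LINE share 1.24. As a share of gene counts, the fold range was 6.18 for LTR, against 1.56 of repeat reads, and 3.02 for LINE. With library totals in place of TMM, the oocyte mean against gene counts had r = -0.054.

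Leaving out 1 embryo at a time gave two-cell ranges between 1.51 (without embryo 1) and 2.88, oviduct shares between 33.3% and 63.6% (without embryo 4), ribosomal shares between 6.85% and 32.9%, and LINE fold ranges between 1.24 (without embryo 1) and 1.90. Pearson's r ran between -0.36 and 0.070 for the two-cell against the oocyte mean, between -0.30 (without embryo 1) and 0.79 for the two-cell mean against the LTR share, between -0.67 and 0.73 (without embryo 1) against the LINE share, between -0.34 and 0.63 for the oocyte mean against gene counts, and between -0.16 and 0.41 for the leukocyte level against gene counts. Among single genes, excess spread was lowest at 0.63 for Gnpda2 without embryo 8, against 1.99 over all, and at 1.33 for Saa3 without embryo 5, against 2.38, and it was 1.47 for Ccl6 without embryo 4, against 2.54. Over embryos 4 to 8 only, it was 1.84 for Lyz1, against 4.01, and 1.37 for Prap1, against 2.89. None of these relations passed the exact permutation test in any setting (lowest adjusted p = 0.455). An alternative chosen after seeing the data, two-cell lists without the early regulators, gave r = 0.62 with the LTR share. Depth limits the rare genes, since 3 counts equal between 0.261 and 0.659 CPM by library.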
